A study of Mus musculus with 80 samples.

Results

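H3K9me2-bound DNA of mouse embryonic stem cells (ESCs) kept in 2i was compared with input DNA of the same medium by ChIP followed by bisulfite sequencing (ChIP-BS). The 4 libraries, 2 bound and 2 input, are part of a series of 80 samples on the loss of DNA methylation between serum and 2i. The cells were wild-type E14 ESCs, a male mouse line used here as 1 line without a genetic change. 2i is a serum-free N2B27 medium with LIF and inhibitors of MEK (PD0325901) and GSK3 (CHIR99021), and the study describes these cells as long-term 2i cultures, whereas the labels say 2i only. For comparison, 4 libraries of the same kind from serum medium with LIF were used. Chromatin was precipitated with an antibody against dimethylated lysine 9 of histone H3, and the recovered DNA was treated with bisulfite, which converts unmethylated cytosine and leaves 5-methylcytosine (5mC). Nothing in the labels says that the replicates of a group were separate cultures, so the spread between them may be technical. ChIP-BS gives no expression, so the identity of the cells was not checked against markers in these libraries.

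H3K9me2 is made mainly by the G9a/GLP methyltransferases (Ehmt2 and Ehmt1) and covers broad, mostly silent parts of the genome. The maintenance methyltransferase DNMT1 copies methylation onto newly made DNA and is brought there by UHRF1, a reader of both half-methylated CpG sites and this class of histone marks. The comparison therefore asks whether DNA wrapped on H3K9me2 nucleosomes carries more 5mC than the genome at large, in a medium in which most of the genome has lost methylation.

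A member was an autosomal 10-kb window with 20 or more calls in each of the 4 libraries, a call being 1 reading of 1 cytosine as methylated or not. Positions with over 20 calls in a library were left out of that library. This gave 179510 of 247243 autosomal windows (72.6%), chosen by coverage alone. The member windows held 21187553 and 16732852 calls in the bound libraries and 13328234 and 11919795 in the inputs. The median window held 109 and 85 bound calls and 70 and 62 input calls. Of 205719 windows that passed the same rule in serum, 175496 passed in both media. Just inside the limit, the 12416 windows whose poorest library held 20 to 24 calls differed by 7.09 points between bound and input, and the 12053 windows with 15 to 19 calls, just outside, by 7.56 points.

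The bound libraries could be told from the inputs by mitochondrial DNA, which carries no histones. Mitochondrial calls were 0.00117% and 0.00271% of all calls in the bound libraries and 0.262% and 0.244% in the inputs, a share at least 90.1-fold lower after precipitation. The mitochondrial calls of the inputs were 0.460% and 0.490% methylated, a level read on DNA that is known to carry little 5mC, and far below the nuclear levels. The replicates shared 53.2% and 65.1% of their positions in the bound pair and 47.2% and 51.8% in the input pair. The labels give each as its own sample, and each was counted as one.

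H3K9me2-bound DNA was more methylated than input in 2i. In the member windows 40.5% and 40.2% of calls were methylated in the bound libraries, against 34.9% in both input libraries. The means were 40.3% ± 0.206 and 34.9% ± 0.0291 (SD, n = 2), a difference of 5.41 points and a ratio of 1.15. Both bound libraries lay above both inputs, and the gap was far wider than the spread within either pair. The exact two-sided permutation test gave p = 0.333, the smallest that this test allows with 2 against 2 libraries, so it cannot pass 0.05 here. Pairing the libraries by replicate number gave differences of 5.58 points for replicate 1 and 5.24 for replicate 2.

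The size of the difference depended on which positions were counted. Over all autosomal positions with up to 20 calls, inside or outside member windows, it was 6.59 points. Without a limit on calls per position it was 3.27 points (42.8% and 42.9% bound, 39.3% and 39.8% input). Positions over the limit were 0.0530% and 0.0386% of the positions of the bound libraries and 0.0239% and 0.0248% of those of the inputs, but held 8.12% and 9.14% of bound calls and 11.003% and 12.1% of input calls. These positions were 67.5% and 68.8% methylated in the bound libraries and 68.2% and 68.7% in the inputs, so that the fractions overlapped there. Directly at the limit, positions with 20 calls were 40.6% and 41.6% methylated in bound DNA and 37.2% and 37.5% in input, and positions with 21 calls 40.5% and 40.4% against 38.4% and 42.3%.

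The distribution over windows lay higher in bound DNA, by more at its lower than at its upper end as read at these depths. The 10th percentile of window methylation was 27.3% and 26.3% in the bound libraries and 20% and 19.8% in the inputs. The 90th percentile was 52.8% and 53.5% against 49.1% and 50.0%. Windows under 20% methylation made up 2.08% and 2.72% of members in the bound libraries but 9.52% and 10.1% in the inputs. Windows over 60% made up 2.78% and 3.46% against 2.03% and 2.22%. These shares also carry counting error, which is greater in the inputs with their fewer calls per window and greater in bound replicate 2 than in bound replicate 1. The part of depth in the tails was not tested.

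Input level and difference went in opposite directions. To avoid using the same value for both, windows were divided into quintiles by one input library and read in the other input. In quintiles set by input replicate 1, the bound mean exceeded input replicate 2 by 7.26 points in the lowest quintile, 5.48 in the middle quintile and 2.33 in the highest quintile. With the inputs exchanged, these values were 7.27, 5.56 and 2.45 points. In the highest quintile bound DNA was 48.4% methylated in both libraries, against 46.1% in the input library not used for the division.

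The difference became more regular as windows were widened. In 10-kb windows the median was 5.40 points, the 10th percentile -4.04 and the 90th 15.02 points. The SD over windows was 7.72 points, of which counting error alone, with calls taken as independent, would give 5.74. Both bound libraries lay above both inputs in 75004 windows (41.8% of those tested) and below both in 10822 (6.03%). In 100-kb windows the shares were 84.8% and 0.889% of 23843 windows. In 1-Mb blocks they were 99.4% and 0.124% of 2417 blocks, with a median of 6.55 points and a 10th to 90th percentile range of 4.19 to 10.5 points. The wider windows had to hold 20 calls at their own size, so they also take in positions outside the member windows. Over all autosomal positions the pooled difference was 6.59 points, against 5.41 in the members. How much of the change with width came from these added positions was not tested. The counting error of a 1-Mb block was 0.655 points, against an SD over blocks of 2.52 points. Across blocks the difference of replicate 1 and that of replicate 2 had a Pearson r of 0.809 (n = 2417), compared with 0.357 for 100-kb windows and 0.109 for 10-kb windows. These correlations are descriptions, since blocks share libraries, depth and base composition. At this depth the difference was thus repeatable for 1-Mb blocks and only weakly so for single 10-kb windows.

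**Figure D1:**
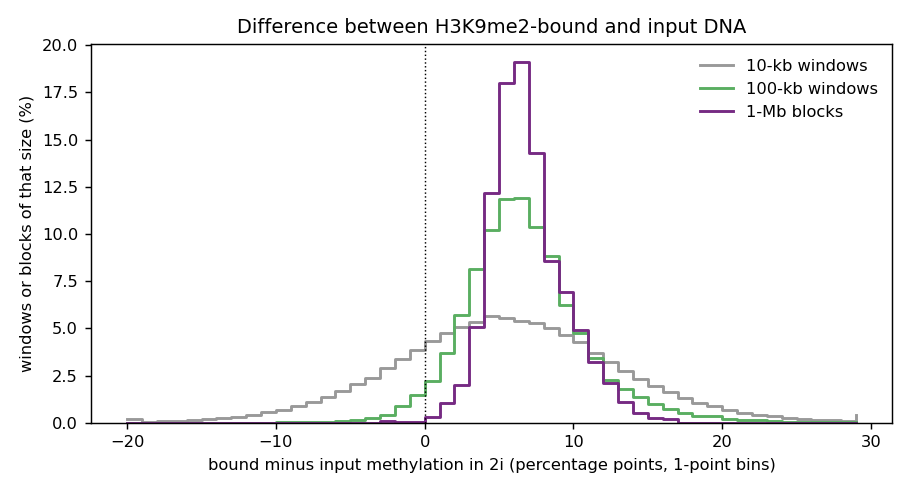
Distribution of bound minus input methylation in 2i (x axis, percentage points) over 10-kb windows, 100-kb windows and 1-Mb blocks (y axis, percent of windows of that size), with the end bins also holding values beyond them. All 3 distributions peak above 0, and the spread narrows from an SD of 7.72 points for 10-kb windows to 2.52 for 1-Mb blocks.

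The 1-Mb blocks at either end differed by more than the spread between replicates at the top and by little at the bottom. The block with the greatest difference, chr17:27000001-28000000 (NCBIM37), was 48.1% and 47.4% methylated in bound DNA and 31.1% and 31.8% in input. The next was chr11:117000001-118000000, with 39.9% and 44.0% against 25.8% in both inputs, on 916 calls in its poorest library. The third was chr14:55000001-56000000, with 44.2% and 43.2% against 27.5% and 27.8%. In all 3 the groups did not overlap. Only 4 of 2417 blocks had a mean difference under 0. The lowest, chr7:33000001-34000000, held 41.6% and 37.8% in bound DNA and 42.8% and 41.7% in input, narrowly without overlap. The next, chr1:197000001-198000000, held 40.5% and 38.8% against 43.9% and 39.8%, with overlapping groups. The poorest libraries of these 2 blocks held 572 and 1455 calls, against a median of 7004 over blocks and libraries. Positions on chromosome 1 stop at 197195361, so the chr1 block is cut short. The neighbour of the lowest, chr7:32000001-33000000, held 38.5% and 37.2% against 38.8% and 39.1%, also without overlap. These blocks were chosen after their values were seen, and genes in them are not given because no annotation of this build was at hand.

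All 19 autosomes showed the difference, with both bound libraries above both inputs on each. The autosomal differences ran from 4.96 points on chromosome 9 to 6.05 on chromosome 19, with an SD over autosomes of 0.269. On chromosome 9 the libraries stood at 41.1% and 40.9% bound and 35.998% and 36.1% input, and on chromosome 19 at 40.97% and 40.8% against 34.9% and 34.8%. Chromosome 16 was the least methylated in input (33.3% and 33.4%) and had the second widest gap (5.96 points). Chromosome 13 was the most methylated in both fractions (42.1% and 41.8% bound, 36.7% and 36.8% input). Its gap was 5.21 points.

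**Figure D2:**
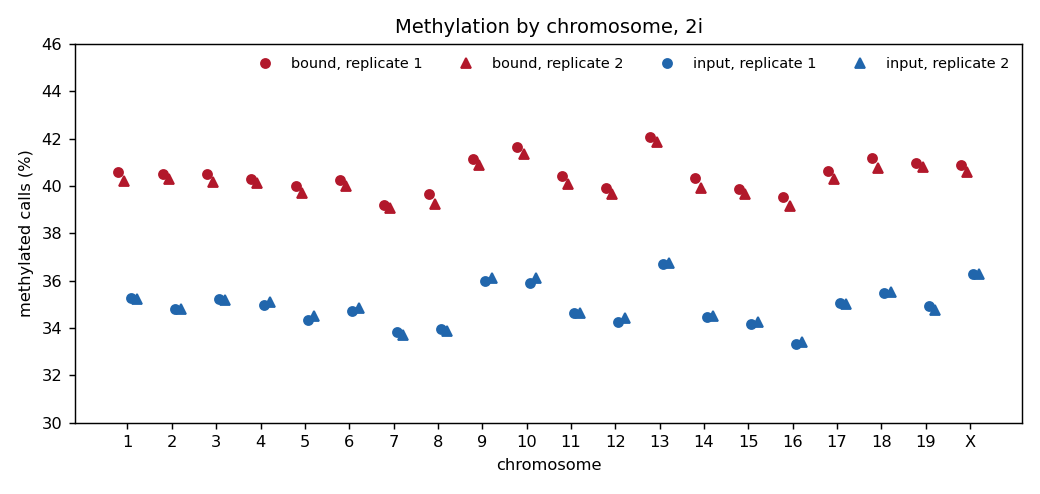
Percent of methylated calls in member windows (y axis, which starts at 30%) for each chromosome (x axis) in the 2 bound libraries (red) and the 2 inputs (blue) of 2i, with the X chromosome shown beside the 19 autosomes. The bound and input points are separate on every chromosome, and the gap is 4.96 to 6.05 points on autosomes.

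Single windows were tested with a quasi-binomial logistic fit on methylated and unmethylated calls, with dispersions moderated across all windows by limma and Benjamini-Hochberg adjustment. At an adjusted p under 0.05, 1500 of 179510 windows were more methylated in bound DNA (0.836% of those tested) and 48 less (0.0267%). The share called went with window size, from 15706 higher and 41 lower of 23843 windows of 100 kb to 40 higher and 1 lower of 90327 windows of 2 kb. In 1498 of the 1500 higher and in all 48 lower windows of 10 kb, the 2 bound libraries did not overlap the 2 inputs. Over all tested 10-kb windows both bound libraries lay above both inputs in 41.8% and below both in 6.03%. Higher windows differed by a median of 25.1 points (9.52 to 57.4) and lower windows by a median of -24.4 points (-7.73 to -43.2). The moderated dispersion was 1.40 with 145 prior degrees of freedom, so a window's own replicate spread had little weight. Without bound replicate 1 the count was 24, without bound replicate 2 it was 84, without input replicate 1 it was 184 and without input replicate 2 it was 198. In these fits the lone library of a group was assumed to vary like the pair of the other group. A limma test on unweighted logits called 0 windows (25285 at an unadjusted p under 0.05, compared with 28932 in the quasi-binomial fit).

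The higher windows were found on all 19 autosomes, at 0.673% (chromosome 9) to 1.17% (chromosome 19) of the tested windows. Their median was 22.5% in input and 48.8% in bound DNA, compared with 33.7% and 39.5% over all members, which describes values that the call itself used. They held a median of 127 cytosine positions, against 97 over all members. They also had fewer bound calls relative to input (median log2 ratio of call shares -0.53, against 0.04). The share of windows called higher was 2.19% in the decile of windows with the lowest such ratio and 0.273% in the decile with the highest. Both bound libraries lay above both inputs in 43.9% and 37.7% of the windows of these deciles. In serum libraries, which had no part in the call, 91.1% of the 1456 higher windows with enough calls had a positive difference, with a median of 8.68 points. Over all 175496 windows these values were 82.0% and 5.24 points. The 48 lower windows had a median of 66.0% in input and 41.2% in bound DNA, and in serum 47.5% of the 40 with enough calls had a positive difference, with a median of -1.53 points. They too held more positions than all members (median 119) and fewer bound calls relative to input (median log2 ratio -0.56). These 2 traits were thus not particular to the higher windows.

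Testing each window against the overall odds ratio of 1.25, rather than against no difference, asked which windows depart from the general shift. Of 179510 windows, 112 departed upward (0.0624%) and 125 downward (0.0696%). Those upward had a median of 52.9% in bound DNA and 17.6% in input, and 97.1% of those with enough serum calls also had a positive difference in serum, with a median of 20.1 points. Those downward had a median of 44.2% against 64.3%, and a median of 0.54 points in serum (117 windows). Upward windows held a median of 150.5 cytosine positions and a log2 ratio of call shares of -1.14, and downward windows 121 positions and -0.34. The counts of departing windows fell to between 2 and 44 when any 1 library was left out, 2 of them without bound replicate 1, 5 without bound replicate 2 and 44 without either input.

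The 5 called windows with the greatest excess in bound DNA all had inputs under 31% methylation. All 5 lost their call without bound replicate 1 and by limma on logits. The windows on chromosome 8 from 18950001 and on chromosome 14 also lost it without input replicate 1, that on chromosome 8 from 71920001 without input replicate 2, and that on chromosome 4 without bound replicate 2. In chr8:71920001-71930000 (NCBIM37), 73.0% and 85.0% of bound calls were methylated, against 21.7% and 21.4% of input calls (adjusted p = 0.000866). This difference of 57.4 points was the widest of all called windows, and it rested on 89, 20, 23 and 28 calls. In serum the same window held 86.8% and 84.6% in bound DNA but 25.7% and 65.0% in the inputs, which therefore disagree with each other.

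In chr17:47140001-47150000 the bound libraries held 79.2% and 62.5%, and the inputs 14.1% and 20.3% (adjusted p = 0.000422). Bound calls were scarce there, 24 in each library against 78 and 64 in the inputs, a log2 ratio of call shares of -2.13. Both groups were again separate in serum, with 86.2% and 85.4% against 58.5% and 50.4%. In chr8:18950001-18960000 the values were 79.2% and 54.5% bound and 13.6% and 19.4% input (adjusted p = 0.00439), so the bound libraries themselves lay far apart.

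In chr14:54180001-54190000 the bound libraries held 64.8% and 40%, and the inputs 0 of 23 calls and 4.35% of 23 (adjusted p = 0.000572). The count of 0 allows a level of up to 13.0%, for counting error only. The window's own dispersion of 3.15 was drawn to 1.43 by the moderation. In chr4:133710001-133720000 the values were 72.7% and 77.1% bound against 30.1% and 23.8% input (adjusted p = 0.00259), and in serum the groups were 71.7% and 84.4% against 69.7% and 62.2%.

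The 5 called windows with the greatest deficit had inputs over 53% methylation. All 5 lost their call when any 1 of the 4 libraries was left out and by limma on logits, and the lower windows as a whole fell from 48 to 0, 3, 4 and 10 without bound replicate 1, bound replicate 2, input replicate 1 and input replicate 2. In chr8:22780001-22790000 the bound libraries held 20.8% and 48.5%, and the inputs 76.9% and 78.8% (adjusted p = 0.0263). In chr3:3020001-3030000 they held 34.8% and 28.6% against 65.0% and 72.2% (adjusted p = 0.0400). In chr9:6780001-6790000 they held 33.3% and 28.0% against 64.7% and 67.2% (adjusted p = 0.0146), on 45 to 58 calls per library. In these windows the inputs lie far above the mean input level of all members.

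In chr13:33150001-33160000 the values were 31.03% and 33.3% bound against 68.8% and 65.4% input (adjusted p = 0.0422), and in chr7:138520001-138530000 they were 27.0% and 25% against 68.2% and 53.2% (adjusted p = 0.0467). In none of the 5 did the serum libraries have both bound values below both inputs, on as few as 8 calls per library. Among windows departing from the overall shift, the 3 with the greatest and the 3 with the lowest difference of group means were the first 3 of these 2 groups.

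**Figure D3:**
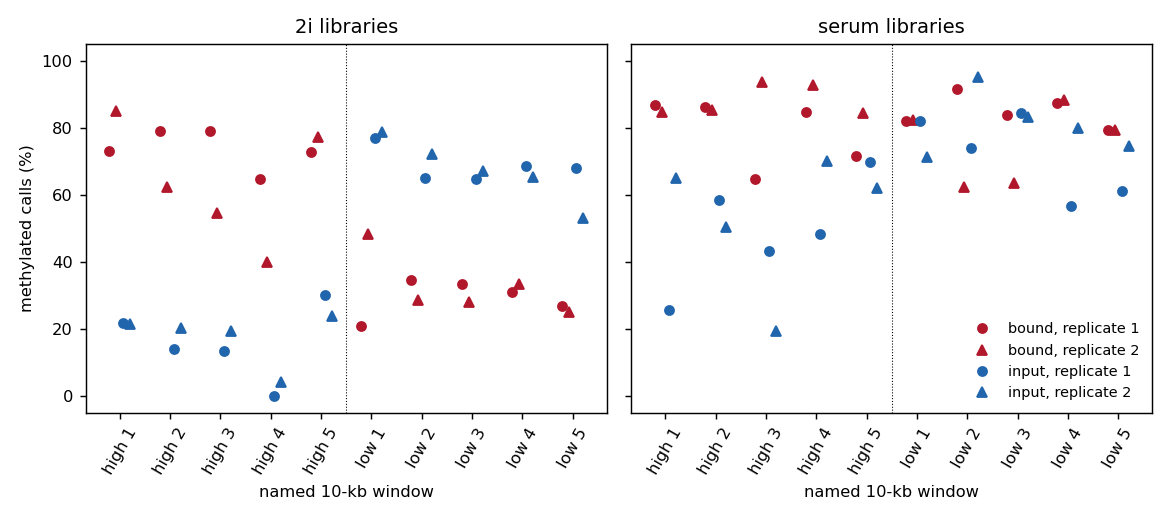
Percent of methylated calls (y axis) in the 5 called windows with the greatest excess (high 1 to high 5) and the 5 with the greatest deficit (low 1 to low 5) of bound over input in 2i, in the order of the text, for each 2i library (left) and serum library (right). In 2i bound (red) and input (blue) points do not overlap in any of the 10, by their choice, whereas in serum the low windows show mixed orders.

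CpG density gave the widest range of differences in pooled calls under the limit of 20 calls, but not in tiles given the same weight. Tiles of 1 kb were classed by the number of cytosine positions seen in any of the 8 ChIP-BS files, which stands in for CpG density. Positions that no library read are not counted, so the classes may also follow coverage, which was not tested. In tiles with 1 to 10 positions 36.4% and 36.2% of bound calls were methylated, against 30.9% and 30.97% of input calls, a difference of 5.36 points. With 11 to 20 positions the difference was 6.87 points and with 21 to 40 it was 10.1 points. In the 9613 tiles with 41 to 80 positions the bound libraries reached 51.6% and 53.1% against 31.5% and 31.7% in input, a difference of 20.7 points and a ratio of 1.66. In the 198 tiles with over 80 positions, the densest class as read here, methylation was low in both fractions, 11.1% and 15.3% against 7.18% and 5.73%. Input methylation was lower with 41 to 80 positions than with 21 to 40 (means 31.6% and 37.7%), while bound methylation was higher in the denser of these 2 classes (47.8% and 52.3%). Bound and input did not overlap in any of the 5 classes, each with the smallest possible exact p of 0.333.

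Coverage moved with these classes. Tiles of 41 to 80 positions took 0.739% and 0.669% of bound calls but 1.17% and 1.16% of input calls, and tiles over 80 positions 0.0390% and 0.0286% against 0.0681% and 0.0565%. When only tiles with 5 or more calls in all 4 libraries were kept and each was given the same weight, the difference was nearly flat: 4.07 points for 1 to 10 positions (262772 tiles), 4.05 for 11 to 20 (217554), 3.76 for 21 to 40 (60175), 3.88 for 41 to 80 (2692) and 3.71 for over 80 (30). In this selection the dense tiles were also methylated in input, at 49.1% and 49.4% for 41 to 80 positions. Without the limit on calls per position, the class of 41 to 80 positions held 7.43% to 11.7% of calls and the difference was 2.94 points there against 5.36 in the sparsest class, so that the order of these 2 classes was reversed. The other classes kept a wider gap than the sparsest, at 6.65 points for 11 to 20 positions, 9.64 for 21 to 40 and 8.04 for over 80.

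**Figure D4:**
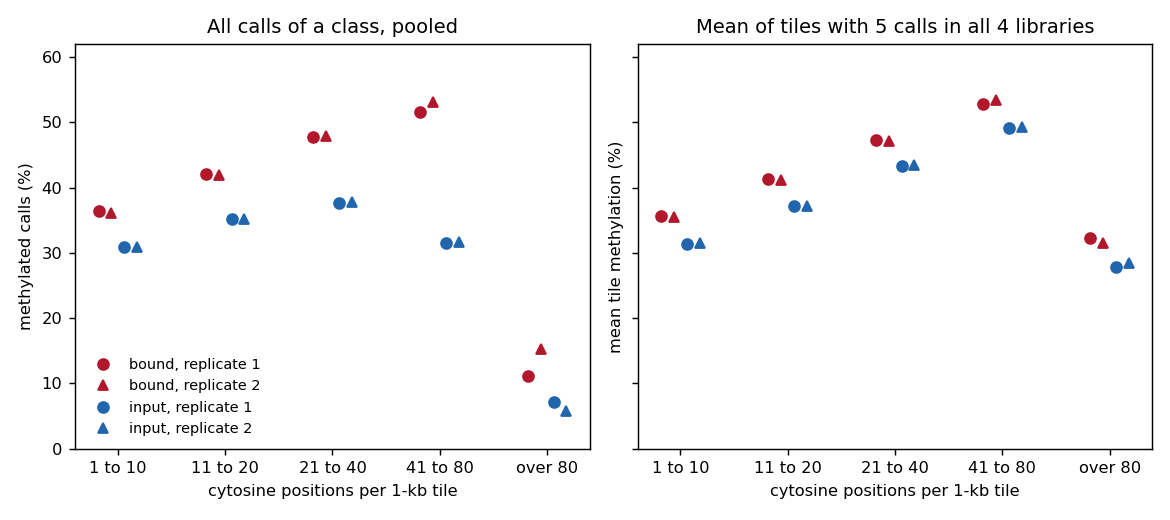
Methylation (y axis, percent) by number of cytosine positions per 1-kb tile (x axis) in the 2 bound (red) and 2 input (blue) libraries of 2i, for all calls of a class (left) and as the mean over tiles with at least 5 calls in all 4 libraries (right). The gap at 41 to 80 positions is 20.7 points on the left and 3.88 points on the right.

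Tiles were therefore also divided by their methylation in the serum inputs (10 or more calls), which have no library in common with the 2i comparison. Among tiles with over 40 positions, the 3250 that were under 20% methylated in serum input, the range of unmethylated CpG islands, stood at 4.30% and 4.64% in bound DNA and 1.63% and 1.58% in input. Their share of bound calls was 0.145 of their share of input calls. The 3155 dense tiles at 80% or more in serum held 59.2% and 60.9% in bound DNA and 58.5% and 58.9% in input, a difference of 1.34 points, with a call share ratio of 0.933. In between the difference was wide, 11.97 points for tiles of 20% to 40% (463 tiles), 14.96 for 40% to 60% (559) and 7.44 for 60% to 80% (1276). Among tiles with 21 to 40 positions the difference was 7.67, 13.97, 12.6, 7.64 and 5.06 points from the lowest to the highest serum class, widest at 20% to 40% rather than at 40% to 60%. In tiles of up to 20 positions the range was narrower, from 7.35 points at 20% to 40% to 4.22 at 80% and over. Bound DNA was above input in all 15 of these classes, and most so, as pooled calls, where serum methylation was intermediate and CpG density high. Bound calls were scarce there. At 20% to 40% and 40% to 60% in serum input, call share ratios were 0.296 and 0.605 with over 40 positions. With 21 to 40 positions they were 0.288 and 0.568. How far the pooled gaps follow from which tiles the bound calls fell in was not tested within classes.

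To see how much of the overall difference lay in where the calls fell, each library was given the inputs' distribution of calls over the same units. Over 10-kb windows this changed little (5.37 points). Over the 1238502 tiles of 1 kb with a call in all 4 libraries, the difference was 4.91 points as pooled and 4.15 points with the inputs' distribution (39.5% and 39.4% bound, 35.2% and 35.3% input), 84.6% of the pooled value. Over the 2213223 single positions read in all 4 libraries, it was 4.17 points as pooled and 3.64 points with the inputs' distribution, 87.3% of the pooled value (38.7% and 38.6% bound, 34.9% and 35.1% input). These positions held 42.7% to 52.3% of the calls of the member windows. Both percentages are of the pooled value over the same units, not of the 5.41 points over all calls of the member windows. Keeping only units read in all 4 libraries had already lowered the difference, so the percentages do not give the share of the whole. Bound DNA was thus more methylated than input at the same cytosines, by less than over all calls.

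Windows with more bound coverage relative to input did not have a wider gap. Windows were ranked by the log2 ratio of bound to input share of calls. In the decile with the lowest ratio (mean -1.72) the bound libraries held 41.4% and 41.1%, against 33.4% and 33.5% in input, a difference of 7.77 points. In the decile with the highest ratio (mean 1.02) they held 41.7% and 41.5% against 37.1% and 37.2%, a difference of 4.43 points. Bound methylation was lowest in the middle of the range, at 39.5% in decile 4, while input methylation was higher at the top than at the bottom. The lowest decile also held the most cytosine positions, a median of 125 per window against 87 to 111 in the others. In the serum libraries the same deciles differed by 9.52 points at the bottom and 4.39 at the top.

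The windows were also divided by density. In the tertile of windows with the fewest cytosine positions the difference was 6.26 points in the lowest quintile of coverage ratio and 4.45 in the highest. In the middle tertile these values were 6.64 and 4.49, and in the densest tertile 7.92 and 4.41. In all 15 combinations of density tertile and coverage quintile both bound libraries lay above both inputs. With deciles taken from the serum libraries, which share no calls with the 2i libraries, the lowest decile again had the widest gap in 2i (7.32 points), but the other 9 lay between 5.38 and 5.67 points. Those serum-based lowest windows were also the most methylated in 2i, at 44.9% and 44.8% in bound DNA and 37.5% in both inputs.

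**Figure D5:**
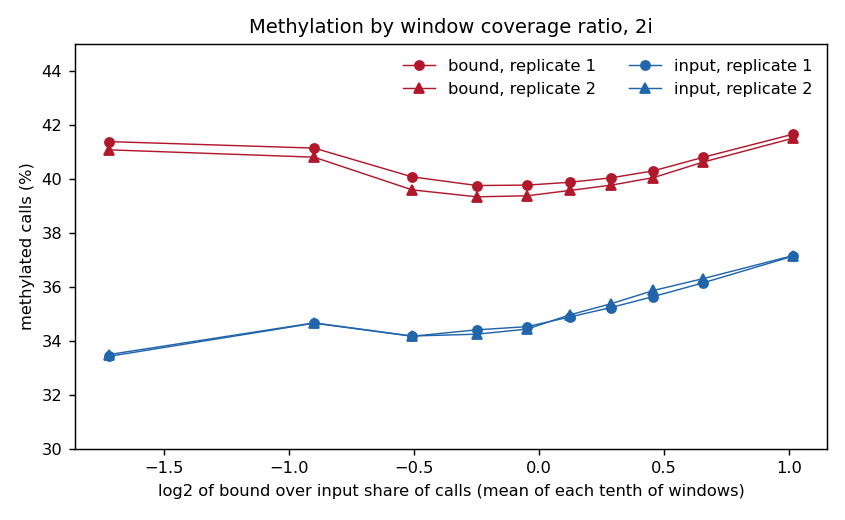
Percent of methylated calls (y axis, which starts at 30%) in deciles of member windows by the log2 ratio of bound to input share of calls in 2i (x axis, mean of each decile), for the 2 bound (red) and 2 input (blue) libraries. The gap narrows from 7.77 points at the left to 4.43 at the right. From end to end the mean input level goes from 33.5% to 37.2% and the mean bound level from 41.2% to 41.6%. Between the ends the bound level is lower, at 39.5% in decile 4.

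Methylation in serum input went with that of both fractions in 2i. In the quintile of windows with the lowest serum input level (mean 62.6%) the 2i bound libraries held 33.7% and 33.3% and the 2i inputs 26.7% in both, a difference of 6.76 points. In the highest quintile (mean 84.7%) they held 46.1% in both bound libraries and 42.7% and 42.8% in input, a difference of 3.39 points. The 3 quintiles between them gave 5.78, 5.26 and 4.56 points. Bound to input ratios ran from 1.25 in the lowest to 1.08 in the highest quintile, and the groups did not overlap in any.

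The gap in 2i and the gap in serum were compared over the same windows, in which the media stood at very different levels. In the 175496 windows that passed in both media, bound and input stood at 40.5% and 40.2% against 34.9% in both inputs in 2i, and at 81.4% in both bound libraries against 76.1% and 75.02% in serum. The difference was 5.41 points in 2i and 5.83 in serum, -0.423 points apart (exact two-sided permutation within medium, p = 0.778, where 36 arrangements allow 0.0556 at the smallest). As a ratio, bound DNA held 1.15 times the input level in 2i and 1.08 times in serum. As log odds ratios the values were 0.23 in 2i and 0.35 in serum, -0.12 apart (exact permutation p = 0.556). A p of this size does not show that the 2 gaps are equal. The difference between the gaps depended on the positions and windows used. Without a limit on calls per position they were 3.24 points in 2i and 5.20 in serum, -1.95 points apart. With each medium over all windows that passed in it, they were 5.41 and 6.48, -1.07 points apart. As an unweighted mean over windows they were 5.49 and 5.58, -0.0894 points apart (exact permutation p = 1), and the median window differed by 5.40 points in 2i and 5.24 in serum. Across windows, the difference in 2i and that in serum had a Pearson r of 0.135 (n = 175496, a description).

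An interaction term between medium and fraction called 6 of 175496 windows (0.00342%), and 11395 had an unadjusted p under 0.05. In all 6 the difference was smaller in 2i than in serum on the log odds scale. Their serum differences ran from 19.01 to 56.4 points and their 2i differences from -14.5 to 13.6 points. An example, chosen as the lowest adjusted p, is chr16:57390001-57400000, with 4.49% and 1.57% in bound DNA and 13.6% and 10.9% in input in 2i, and 48.0% and 50.7% against 18.8% and 34.8% in serum (adjusted p = 0.000417). The count was 0 by limma on logits and depended on which 2i library was left out. In 100-kb windows it was 214 of 23835, of which 213 had the smaller difference in 2i. This test is against no interaction, and the log odds ratio over all 10-kb windows was also smaller in 2i (0.23 against 0.35).

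RRBS of E14 cells, which reads CpG-rich fragments in other libraries, was used as an outside measure of the same windows. It was averaged over positions with 5 or more calls in all 4 libraries of serum and of 168 h in 2i. Member windows held 253218 such positions in 34063 windows, at 30.9% and 31.3% in serum and 16.5% and 16.9% at 168 h. In the quintile of windows with the least bound minus input difference, RRBS stood at 41.7% and 42.1% in serum and 24.9% and 25.2% at 168 h. In the quintile with the greatest difference it stood at 20.03% and 20.4% and at 9.45% and 9.70%, so windows with a wide gap were also weakly methylated by RRBS. The share of serum methylation kept at 168 h was 59.7% in the former and 47.3% in the latter. These quintiles also sort windows by input, since the difference is taken from the input level. By 2i input methylation, the lowest quintile kept 42.5% and the highest 63.0%. By 2i bound methylation these values were 43.0% and 59.2%. In the 537 higher windows with RRBS positions, RRBS gave 8.87% and 9.21% in serum and 3.95% and 4.07% at 168 h. By ratio of call shares, the quintile with the least bound coverage kept 45.1% and that with the most kept 61.7%. These 2 quintiles started from very different serum levels by RRBS, 17.6% and 18.1% against 70.9% and 71.1%. The share kept was also greater from a higher serum level in the quintiles by 2i input methylation. The part of the starting level was not tested. These values are a description, with no test, since RRBS positions lie in the CpG-dense minority of each window.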

How the data were processed

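The authors deposited, for each ChIP-BS and RRBS library, counts of methylated and unmethylated calls per cytosine position in Bismark's coverage layout. Bismark 0.12.3 and Trim Galore 0.3.5 are listed in the submitters' processing notes. Positions on chromosome 1 reach 197195361, which fits NCBIM37, and no annotation of that build was used. The sources used here do not state whether PCR duplicates were removed, and calls of 1 read are not independent, so all intervals and limits cover counting error only. The members, classes and lists were chosen with earlier results of these data known.

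Calls were summed per window with Python 3.11.15 after positions with over 20 calls were left out of a library. Windows with 20 or more calls in each library were fitted with a quasi-binomial logistic model, dispersions were moderated with squeezeVar of limma 3.58.1 (R 4.3.3), and an F test with Benjamini-Hochberg adjustment was called at 0.05. Departure from the overall difference was tested with the Mantel-Haenszel log odds ratio as offset. Group levels were compared by exact two-sided permutation. The fits were tested on simulated data. No replicate block was used in the main fits. The correlation of the deviations of bound 1 and input 1 was -0.00212 over 10-kb windows. Counting error makes up much of these deviations, so this value cannot tell whether the replicate numbers pair the libraries. Named windows were the 5 with the greatest and the 5 with the lowest difference of group means among called windows whose groups did not overlap, and the 3 greatest and 3 lowest among those departing. Other files of the series were not used here.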

Additional observations from a re-analysis of the deposited data

Results flagged for a closer look

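The interaction of medium and fraction called 6 of 175496 windows (0.00342%) in which bound minus input differed between 2i and serum (quasi-binomial fit with limma moderation, adjusted p 0.000417 to 0.0365). Limma on logits called 0. The serum difference exceeded that in 2i in 6 of 6, which is also the direction of the log odds ratio over all windows (0.23 in 2i against 0.35 in serum).

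The X chromosome, which took no part in the autosomal comparison, was also more methylated in bound DNA. Its 10058 windows held 40.9% and 40.6% in bound DNA and 36.3% in both inputs, a difference of 4.48 points. This lies below the range of the 19 autosomes in 2i (4.96 to 6.05 points). In serum the X difference was 5.62 points, also below the autosomal range of 6.06 to 7.31 points. These serum values are over all windows that passed in serum, where the autosomal difference was 6.48 points.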

How the results depend on the processing

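Leaving out 1 library or adding a replicate block could not change the direction of the overall difference, since the groups did not overlap. Bound DNA was above input under all 18 alternatives tried for that difference, at 3.27 to 6.59 points. It moved by more than the spread between replicates with no limit on calls per position (3.27), at positions with a call in all 4 libraries (4.17), over all autosomal positions (6.59), on the X chromosome (4.48), with at least 50 (4.98) or 10 calls (5.74), in 100-kb windows (6.58) and with the inputs' distribution of calls over 1-kb tiles (4.15) or positions (3.64). The last 2, leaving positions over 20 calls in any library out of all 4, and taking each medium over its own windows, were chosen after seeing the data. The windows called, 1548 in all, and those departing, 237, became 814 and 135 of 96234 tested with 50 calls, 615 and 68 without positions over 5 calls, 15747 and 1391 of 23843 in 100-kb windows, 41 and 6 of 90327 in 2-kb windows, and 0 and 0 by limma on logits (13425 departing windows at an unadjusted p under 0.05). Leaving out 1 library, with the lone library assumed to vary like the other pair, left 24 to 198 and 2 to 44. Of the 1548, 526 were called without positions over 5 calls and 1542 without any limit. With the replicate block the counts were 1932 and 321, the overall difference was 5.41 and the interaction called 19 windows. Whether the numbers pair the libraries is not known. The interaction count was 18 with no limit, 214 of 23835 in 100-kb windows and 0 by limma (10584 at an unadjusted p under 0.05). It also depended on which 2i library was left out (the serum libraries were not left out). The difference between media was -1.95 points with no limit and -0.12 on the log odds scale. The gap at 41 to 80 positions exceeded that at 1 to 10 by 15.4 points, and with no limit this became -2.42, while the other denser classes stayed above the sparsest. The narrowing from the lowest to the highest coverage decile, -3.34 points, was -1.84 with serum classes, and that over serum quintiles kept its direction (-3.37 and -3.57). The causes were not tested. Of 104 values for the 10 named windows 42 lost their call, 10 of these by limma. None changed sign, but these windows were chosen for groups that do not overlap, so leaving out 1 library could not change it. Limma and the replicate block left the difference as it was. The 10 named windows rest on 20 to 89 calls per library.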
